A study of Homo sapiens with 27 samples.

Results

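Adhesion G protein-coupled receptors (GPCRs) are described here in 92.1 cells, an established human uveal melanoma cell line, during 21 days of treatment with an inhibitor of focal adhesion kinase (FAK). The 8 genes *ADGRG1*, *ADGRG6*, *ADGRL1*, *ADGRL2*, *ADGRL3*, *ADGRA3*, *ADGRE5* and *ADGRB2* were picked by symbol from the 61533 genes of the count table. They belong to the 33 adhesion GPCR genes that were looked up by name. *ADGRG1* was chosen on its own values, because it was lower with the inhibitor on every day. Its values in that contrast are therefore a description without a test. The inhibitor was VS-4718 at 100 nM (FAKi), the vehicle was DMSO, and the treatments and media were renewed every 72 h. There were 27 mRNA libraries in 9 groups of 3, which were DMSO at day 0 and both treatments at days 3, 7, 14 and 21. All groups came from this single cell line, which carries mutant *GNAQ*. Per the methods of the study, each condition was plated in triplicate and the whole experiment was made in 3 biological replicates. Whether the 3 libraries of a group are these repeats is not stated.

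Adhesion GPCRs carry a long extracellular part that binds matrix proteins or proteins on neighbouring cells. Most of them are cut at a site close to the membrane, and removal of the outer part can expose a tethered peptide that activates the receptor. *ADGRG1* (GPR56) couples to the G12/13 proteins and RhoA, and it has been studied in melanoma cells, where it binds transglutaminase 2. FAK is a kinase of the sites at which integrins attach the cell to the matrix.

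Total counts per library lay between 12161994 and 43651551, with a median of 24759579. At days 3 and 14 every DMSO library was deeper than every FAKi library. Levels are given as CPM, the count scaled to the library total, with TMM factors set over all 27 libraries. Distances between libraries were taken as the root mean square of the log2 CPM differences of 16982 genes. For 18 of the 27 the nearest library was one of the same group, and 2 libraries of a group were 0.228 to 0.806 apart (median 0.397). The replicate 1 of FAKi day 7 lay at 0.215 from its nearest library, FAKi day 14 replicate 1, and at 0.724 on average from its own group. DMSO day 3 replicate 1 was nearest to DMSO day 0 replicate 3, and DMSO day 21 replicate 3 was nearest to DMSO day 3 replicate 3. These 2 libraries were on average 0.691 and 0.744 from their own groups. The other 2 libraries of DMSO day 3 were in turn nearest to DMSO day 21 replicate 3, at 0.38 and 0.324, so that no library of DMSO day 3 was nearest to its own group. They also differed from their groups in the share of mitochondrial counts, which was 18.1% in DMSO day 3 replicate 1 against 9.59% and 8.61%, and 9.75% in DMSO day 21 replicate 3 against 5.49% in both others. The count column of DMSO day 21 replicate 3 carries an additional digit in its day, and the title gives day 21. Results that rest on FAKi day 7 replicate 1, DMSO day 3 replicate 1 and DMSO day 21 replicate 3 are given with and without them, an alternative chosen after seeing the data. Which of the DMSO day 3 libraries are typical of that day cannot be told from these values, and a fit without replicate 1 rests on the 2 that resemble a library of day 21.

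The share of mitochondrial counts also differed between the treatments, in no common direction. In FAKi at day 3 it was 16.8% to 18.7%, and in DMSO at day 3 it was 18.1%, 9.59% and 8.61%. It was 20.2% to 20.7% in FAKi against 17.0% to 19.3% in DMSO at day 7, 20.7% to 22.1% against 22.0% to 26.97% at day 14, and 10.7% to 11.2% against 5.49% to 9.75% at day 21. Its part in the results below was not tested. The cells had the markers of the melanocytic lineage. The 7 melanocytic markers summed to 9438 to 13975 CPM in the 12 DMSO libraries of days 3 to 21 and to 12091 to 14951 CPM in the 12 FAKi libraries. The 5 leukocyte markers summed to at most 0.625 CPM and the 3 endothelial markers to at most 0.885 CPM in any library. The 5 fibroblast markers summed to 7.47 to 17.3 CPM in DMSO and 5.71 to 17.3 CPM in FAKi. *COL1A1* and *LUM* made up most of this, with *DCN* and *COL1A2* at 0 in 23 and 24 libraries.

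*ADGRG1* (ENSG00000205336.14) is a plus-strand gene of chromosome 16 (hg38). Its counts come from the 15 exons of 1 transcript, ENST00000540164.6, from 57639518 to 57665032, while GENCODE 44 lists 79 transcripts of the gene. Reads that fall only in exons of the others were not counted. No other gene overlaps these exons. The 3 RefSeq start sites of the gene lie 19780, 19472 and 10888 bases before the start of the counted transcript. The 250 bases before each of the 3 were searched on both strands for GGAATG, the core of the TEAD motif, for TGANTCA, the AP-1 motif, and for CATGTG and CACGTG, E-boxes of the kind that MITF binds. Only the window chr16:57628380-57628629 held a match, with TGANTCA starting 192 and 113 bases before its start site. Of 35116 promoter windows of that length in the RefSeq table (GRCh38.p14), 6.57% held TGANTCA, 11.9% GGAATG, 9.42% CATGTG and 6.34% CACGTG. In the 250 bases before the start of the counted transcript, chr16:57639268-57639517, none of the 4 motifs was found. The matches are shown because they are the only ones in the 4 windows searched, and they lie far upstream of the counted transcript. They are printed 5′ to 3′ on the plus strand with 10 bases on either side, from chr16:57628428-57628454 and chr16:57628507-57628533, and the capitals mark the motif.
ADGRG1 upstream, first match: tgcccggcgcTGAGTCAtgggcatccc
ADGRG1 upstream, second match: gagaaatccaTGACTCAcatatatcgt
In GENCODE 44 the first stretch falls in an exon of 1 annotated transcript and the second in exons of 3. A match of letters is a description, and binding was not measured. Windows were in the table for 6 of the 8 genes, and not for *ADGRE5* and *ADGRL1*.

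*ADGRG1* was low in every FAKi library. At day 0 it was at 15.2, 14.4 and 15.7 CPM in DMSO. By day 3 it was at 20.7, 17.5 and 16.4 CPM in DMSO and at 6.25, 5.41 and 5.80 CPM in FAKi. At day 7 it was at 23.4, 22.6 and 21.1 CPM in DMSO and at 2.18, 9.88 and 7.26 CPM in FAKi. The FAKi values of day 7 were the most scattered of the 9 groups, and the lowest of them was FAKi day 7 replicate 1, the library nearest to day 14. At day 14 the level was 11.9, 8.70 and 8.94 CPM in DMSO and 2.26, 2.19 and 1.68 CPM in FAKi. By day 21 it was 15.4, 13.7 and 20.6 CPM in DMSO and 8.52, 8.36 and 7.14 CPM in FAKi. On none of the 4 days did both groups overlap. Since the gene was chosen on this, the gap is no result of its own. In a bulk library a lower level can mean less RNA per cell or fewer cells that express the gene, and these cannot be told apart. The counts cover the exons of a single transcript, and a change in which transcripts of the gene are used was not tested.

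**Figure D1:**
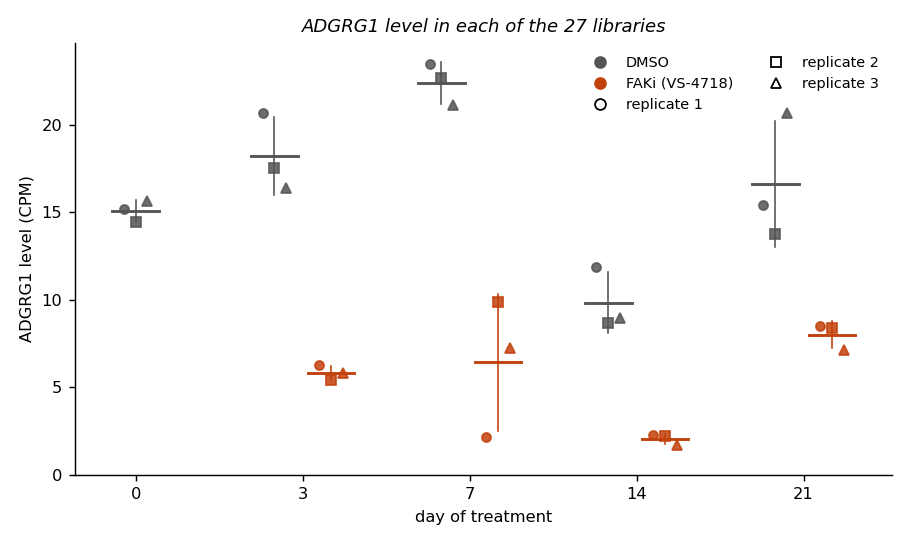
The level of *ADGRG1* in CPM (vertical axis, from 0) is plotted for each of the 27 libraries by day of treatment, with DMSO in grey and FAKi in orange, horizontal lines at the mean of 3 libraries and vertical lines for the SD. All FAKi libraries lie below the DMSO libraries of their day, from 1.68 CPM at day 14 to 9.88 CPM at day 7.

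The DMSO mean of *ADGRG1* was 3.13 times that of FAKi at day 3. This ratio was 3.48 at day 7, 4.81 at day 14 and 2.07 at day 21. The fitted log2 fold changes were -1.63 (SE 0.18), -1.80 (SE 0.40), -2.26 (SE 0.24) and -1.01 (SE 0.20), and their mean over the 4 days was -1.68 (SE 0.15). Without DMSO day 3 replicate 1 the value of day 3 was -1.51. Without FAKi day 7 replicate 1 that of day 7 was -1.38, and without FAKi day 7 replicate 2 it was -2.27. The value of day 21 was -0.81 without DMSO day 21 replicate 3. With all 3 libraries that stand apart left out, the mean over the days was -1.50 (SE 0.088).

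The 9 group means of *ADGRG1* were ordered as follows. DMSO at day 7 was highest with 22.4 ± 1.19 CPM (SD, n = 3 here and for each mean that follows). DMSO at day 3 came next with 18.2 ± 2.22 CPM, then DMSO at day 21 with 16.6 ± 3.60 CPM and DMSO at day 0 with 15.1 ± 0.62 CPM. The libraries of these last 3 groups overlapped in that order from one to the next. DMSO at day 14 was lowest among the vehicle groups, with 9.83 ± 1.76 CPM. FAKi at day 21 was at 8.01 ± 0.76 CPM, at day 7 at 6.44 ± 3.91 CPM and at day 3 at 5.82 ± 0.42 CPM. FAKi at day 7 overlapped with both of its neighbours in this order. FAKi at day 14 was lowest of all with 2.04 ± 0.31 CPM.

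The vehicle cultures drifted over time too. The choice of *ADGRG1* did not use this contrast with day 0, but it used the DMSO values of days 3 to 21. Tests of *ADGRG1* over time in DMSO are therefore not independent of its choice, and their adjusted p are given as a description. They share the later DMSO libraries with the FAKi comparisons, and all 4 comparisons over time share the day 0 libraries. A gene is called here at an adjusted p of at most 0.05 together with an absolute log2 fold change over 1, and it passed the test where only the adjusted p was met. All adjusted p came from quasi-likelihood tests in edgeR, adjusted by Benjamini-Hochberg over all genes tested. In DMSO *ADGRG1* rose from day 0 to day 7 by a log2 fold change of 0.55 (SE 0.096, adjusted p = 0.000245 from edgeR) and fell from day 0 to day 14 by 0.62 on the log2 scale (SE 0.15, adjusted p = 0.0068 from edgeR). In a single fit of all 27 libraries neither passed, with adjusted p = 1 and 0.119 from edgeR. At day 3 the log2 fold change was 0.25 and at day 21 it was 0.13, with adjusted p = 0.58 and 0.562 from edgeR.

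**Figure D2:**
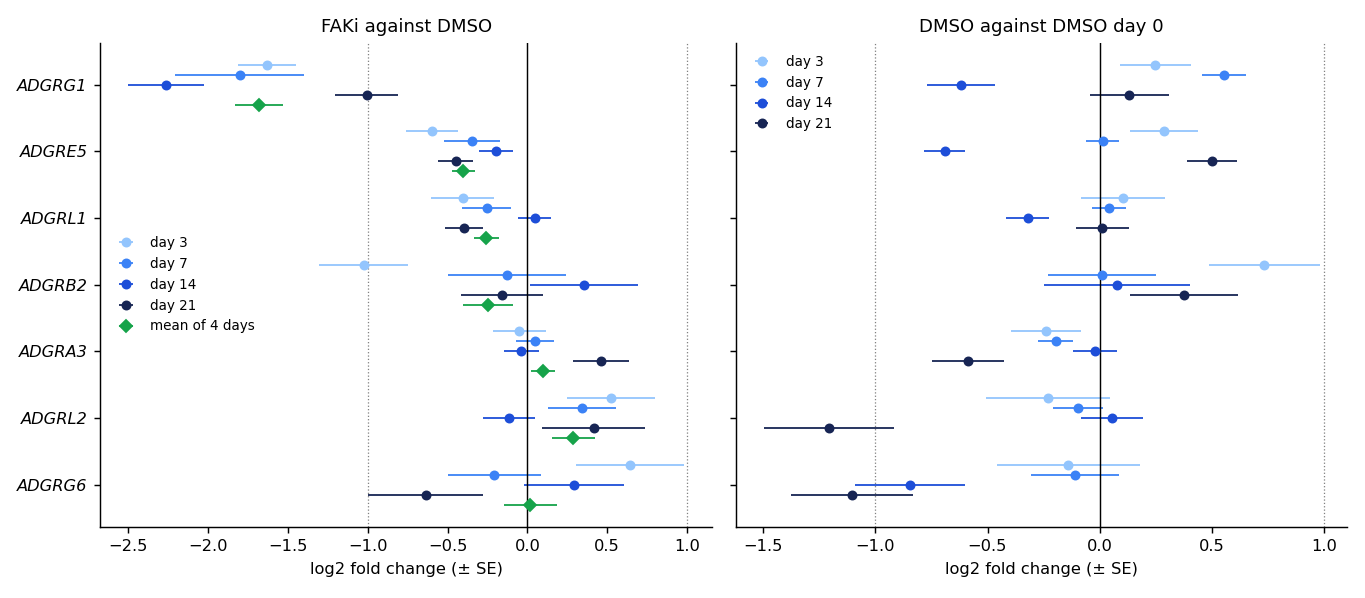
Log2 fold changes with their standard errors (horizontal axis) are plotted for 7 of the 8 genes, FAKi against DMSO on the left with the mean of the 4 days as diamonds, and DMSO against DMSO day 0 on the right. Dotted lines mark the fold limit of 1 on the log2 scale, and *ADGRG1* on the left, from -1.01 to -2.26, was chosen on these values.

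Of the 7 other genes, none was called with FAKi on any day. At day 3, 0 of 7 were called by edgeR, and 2 of the 6 tested had an unadjusted p under 0.05, as had 23.8% of all genes. The background there was 0% of 22846 genes called, so no gene of the table was called at that day. At day 7, 0 of the 6 tested were called against 0.0269% of all genes, and 0 had an unadjusted p under 0.05 against 8.77%. At day 14, 0 were called against 1.66%, and again 0 had an unadjusted p under 0.05, against 24.6%. At day 21, 0 were called against 5.28%, 1 passed the test against 11.6%, and 3 of the 6 tested had an unadjusted p under 0.05 against 32.6%. In the mean over the 4 days 0 were called against 1.89% of all genes, and 2 of the 7 passed against 15.7%. DESeq2 called 1 of the 7 at day 3, *ADGRB2*, beside 3.3% of all genes in that fit, and none in the other FAKi comparisons.

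The libraries that stand apart bear on these counts. Without DMSO day 3 replicate 1, 4 of the 6 tested passed the test at day 3 against 32.7% of all genes, and 0 were called against 12.7%. The pair of DMSO libraries kept in that fit had 9.59% and 8.61% mitochondrial counts. Without FAKi day 7 replicate 1, 1 of the 6 tested passed at day 7 against 2.96%, and 0 were called against 1.14%. Without DMSO day 21 replicate 3, 4 of the 6 tested passed at day 21 against 48.5%, and 0 were called against 18.7%. Without all 3, 3 of the 7 passed in the mean over the days against 33% of all genes, and 0 were called against 3.79%. More genes of the whole table passed in the same fits, so these counts stand beside a raised background.

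*ADGRE5* (CD97), a receptor for CD55 that is known from leukocytes and also found in tumour cells, had the highest level per length of the whole family. Its counted transcript spans 14381444 to 14408723 on chromosome 19 (plus strand), and 7.9% of its counted exon bases are overlapped by the gene ENSG00000267379 on the opposite strand. At day 0 it was at 70.6, 75.8 and 75.7 CPM. At day 3 it was at 77.98, 91.2 and 106.1 CPM in DMSO and at 66.6, 60.0 and 53.7 CPM in FAKi. At day 7 it was at 75.3, 72.5 and 77.8 CPM in DMSO and at 43.8, 72.2 and 62.3 CPM in FAKi. The lowest of the latter was FAKi day 7 replicate 1, as for *ADGRG1*. At day 14 the level was 46.9, 43.4 and 47.5 CPM in DMSO and 38.9, 43.0 and 38.7 CPM in FAKi. By day 21 it was 105.5, 107.5 and 102.6 CPM in DMSO and 74.2, 74.2 and 74.9 CPM in FAKi.

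On each day every FAKi library of *ADGRE5* was below every DMSO library, narrowly at days 7 and 14. Of 21147 genes, 0.411% showed this pattern on all 4 days. The share of genes whose groups did not overlap, in either direction, was 30.9%, 16.7%, 28.9% and 35.4% on the 4 days in their order. Its DMSO mean was 1.53 times the FAKi mean at day 3, and on the later days the ratio was 1.27, 1.14 and 1.41. *ADGRE5* fell in the mean FAKi effect by 0.40 on the log2 scale (SE 0.072, adjusted p = 5.47e-04 from edgeR) and at day 21 by 0.45 (SE 0.11, adjusted p = 0.0391 from edgeR). The log2 fold changes of days 3, 7 and 14 were -0.60, -0.35 and -0.20, with adjusted p = 0.1, 0.618 and 0.283 from edgeR. Without DMSO day 3 replicate 1 the value at day 3 was -0.69 (adjusted p = 0.00321 from edgeR). It passed at day 21 with or without DMSO day 21 replicate 3, but leaving out any other library of that day gave an adjusted p between 0.116 and 0.161. A difference of its FAKi effect between the days was not detectable (adjusted p = 0.471 from edgeR).

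In DMSO alone *ADGRE5* fell from day 0 to day 14 by 0.69 on the log2 scale (SE 0.091, adjusted p = 6.65e-05 from edgeR) and rose to day 21 by 0.50 (SE 0.11, adjusted p = 0.00872 from edgeR). Among the 7 genes, *ADGRE5* had the pattern over the libraries most like that of *ADGRG1*, at a higher level. Pearson's r of log2 CPM over the 27 libraries was 0.774, where the libraries share treatment, day and scaling, and it is given as a description.

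*ADGRL1*, *ADGRL2* and *ADGRL3* encode latrophilins, which bind teneurins and FLRT proteins on neighbouring cells. *ADGRL1* lies on the minus strand of chromosome 19 from 14147743 to 14206187, and 3.553% of its counted exon bases are shared with the antisense gene *ADGRL1-AS1*. At day 0 it was at 79.5, 88.6 and 93.5 CPM. At day 3 it was at 121.2, 74.5 and 89.5 CPM in DMSO and at 80.99, 69.5 and 63.3 CPM in FAKi. Both groups overlapped there, and the highest value was that of DMSO day 3 replicate 1. At day 7 it was at 83.9, 91.8 and 95.6 CPM in DMSO and at 82.03, 84.3 and 61.4 CPM in FAKi, and at day 14 at 67.5, 75.7 and 66.5 CPM against 74.5, 77.7 and 64.7 CPM. By day 21 it was at 87.5, 86.9 and 90.1 CPM in DMSO and at 60.2, 70.5 and 63.5 CPM in FAKi, without overlap. The groups of 35.4% of all genes did not overlap at day 21, in either direction.

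*ADGRL1* fell in the mean FAKi effect by 0.26 on the log2 scale (SE 0.078, adjusted p = 0.0262 from edgeR). By day the log2 fold changes were -0.40, -0.26, 0.04 and -0.40, and none passed (adjusted p = 0.242, 0.667, 0.866 and 0.0668 from edgeR). At day 21 the replicate numbers were taken as pairs, which the sources do not state. With the replicate block the adjusted p of *ADGRL1* was 0.0239 from edgeR, beside 29.9% of all genes that passed in that fit. It was 0.00631 from edgeR without DMSO day 21 replicate 3. In DMSO *ADGRL1* fell from day 0 to day 14 by 0.32 on the log2 scale (SE 0.095, adjusted p = 0.0204 from edgeR).

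The counted transcript of *ADGRL2* spans 81800934 to 81993932 on chromosome 1 (plus strand). It was at 12.2, 12.9 and 11.5 CPM at day 0. At day 3 it was at 14.4, 10.95 and 6.14 CPM in DMSO and at 14.9, 15.8 and 14.4 CPM in FAKi. At day 7 it was at 11.6, 10.6 and 11.99 CPM in DMSO and at 9.97, 16.4 and 17.2 CPM in FAKi, and at day 14 at 12.3, 13.9 and 11.8 CPM against 10.2, 11.5 and 13.5 CPM. At day 21 it was at 3.61, 4.32 and 8.01 CPM in DMSO and at 5.72, 6.51 and 8.26 CPM in FAKi. Both groups overlapped on every day, and in DMSO at day 21 the highest value was that of replicate 3, which stands apart.

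The log2 fold changes of *ADGRL2* with FAKi were 0.52, 0.34, -0.11 and 0.41 by day and 0.29 (SE 0.14) in the mean, with adjusted p = 0.27, 0.676, 0.75, 0.396 and 0.153 from edgeR. With the libraries that stand apart left out it passed in each FAKi fit that such a library touches. The log2 fold change was then 0.84 at day 3, 0.55 at day 7, 0.88 at day 21 and 0.53 in the mean, with adjusted p = 0.0121, 0.0424, 0.00205 and 6.24e-05 from edgeR. In DMSO *ADGRL2* fell from day 0 to day 21 by 1.21 on the log2 scale (SE 0.29, adjusted p = 0.0118 from edgeR) and was called. Without DMSO day 21 replicate 3 the fall was 1.65 (adjusted p = 5.35e-13 from edgeR), and without DMSO day 21 replicate 1 the log2 fold change was -0.96, short of the fold limit.

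*ADGRL3*, which spans 61200326 to 62078335 on chromosome 4 (plus strand), was close to absent. It had 35 counts in all and 0 in 16 of the 27 libraries. The largest count was 10, in DMSO day 14 replicate 3. It was too low for the fits of 6 libraries, and its mean FAKi effect in the fit of 24 was -1.50 (SE 0.89, adjusted p = 0.27 from edgeR).

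*ADGRA3* (GPR125), an orphan receptor with leucine-rich repeats, lies on the minus strand of chromosome 4 from 22387376 to 22516066. Its level lay between 26.9 and 53.7 CPM. Under DMSO it was at 47.8, 51.0 and 47.8 CPM at day 0 and at 31.1, 26.9 and 39.7 CPM at day 21. Under FAKi it was at 40.8, 41.1 and 48.3 CPM at day 21, above all DMSO libraries of that day. The groups of 35.4% of all genes did not overlap at day 21, in either direction. On the earlier days both groups of *ADGRA3* overlapped. The log2 fold change with FAKi at day 21 was 0.46 (SE 0.17, adjusted p = 0.11 from edgeR), and it passed with the replicate block (0.47, adjusted p = 0.0154 from edgeR) and without DMSO day 21 replicate 3 (0.65, adjusted p = 1.58e-04 from edgeR). In DMSO *ADGRA3* fell from day 0 to day 21 by 0.59 on the log2 scale (SE 0.16, adjusted p = 0.0183 from edgeR).

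*ADGRG6* (GPR126), a receptor for type IV collagen and laminin-211 that is needed for myelination by Schwann cells, spans 142301854 to 142446266 on chromosome 6 (plus strand). It was at 4.39, 3.59 and 4.41 CPM at day 0. At day 3 it was at 5.34, 3.87 and 2.16 CPM in DMSO and at 4.28, 7.18 and 6.35 CPM in FAKi, and at day 7 at 2.60, 4.44 and 4.67 CPM against 2.43, 3.74 and 4.01 CPM. At day 14 it was at 2.36, 2.44 and 2.12 CPM in DMSO and at 2.62, 2.99 and 2.90 CPM in FAKi, without overlap. The groups of 28.9% of all genes did not overlap at day 14, in either direction. At day 21 *ADGRG6* was at 1.63, 1.53 and 2.64 CPM in DMSO and at 0.947, 1.00 and 1.61 CPM in FAKi, with overlap.

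The FAKi values of *ADGRG6* had no common direction, with log2 fold changes of 0.64, -0.21, 0.29 and -0.64 by day, and none passed (adjusted p = 0.273, 0.867, 0.651 and 0.249 from edgeR). Without DMSO day 3 replicate 1 the value of day 3 was 0.99 (adjusted p = 0.0213 from edgeR). In DMSO *ADGRG6* fell from day 0 to day 14 by 0.84 on the log2 scale (SE 0.25, adjusted p = 0.0181 from edgeR) and to day 21 by 1.10 (SE 0.27, adjusted p = 0.0132 from edgeR), and the latter was called. That call was lost without DMSO day 0 replicate 1 or 3 and without DMSO day 21 replicate 1 or 2. Without DMSO day 21 replicate 3 the log2 fold change was -1.40 (adjusted p = 1.75e-06 from edgeR).

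*ADGRB2* (BAI2), a receptor of the brain-specific angiogenesis inhibitor group, lies on the minus strand of chromosome 1 from 31727117 to 31764340. At day 0 it was at 1.73, 2.20 and 2.15 CPM. At day 3 it was at 3.89, 2.85 and 3.51 CPM in DMSO and at 1.68, 1.26 and 2.05 CPM in FAKi, without overlap. The groups of 30.9% of all genes did not overlap at day 3, in either direction. On the other days, between 1.23 and 3.13 CPM, both groups of *ADGRB2* overlapped. The log2 fold change at day 3 was -1.02 (SE 0.28, adjusted p = 0.0998 from edgeR). It was called with DESeq2 (adjusted p = 0.0358), in the fit of all 27 libraries (adjusted p = 0.0309 from edgeR) and without a count filter (adjusted p = 0.0217 from edgeR), where 3.3%, 2.85% and 3.3% of all genes were called. Without DMSO day 3 replicate 1 it passed at -0.90 (adjusted p = 0.0273 from edgeR), short of the fold limit. The mean over the 4 days was -0.24 (SE 0.16, adjusted p = 0.305 from edgeR).

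**Figure D3:**
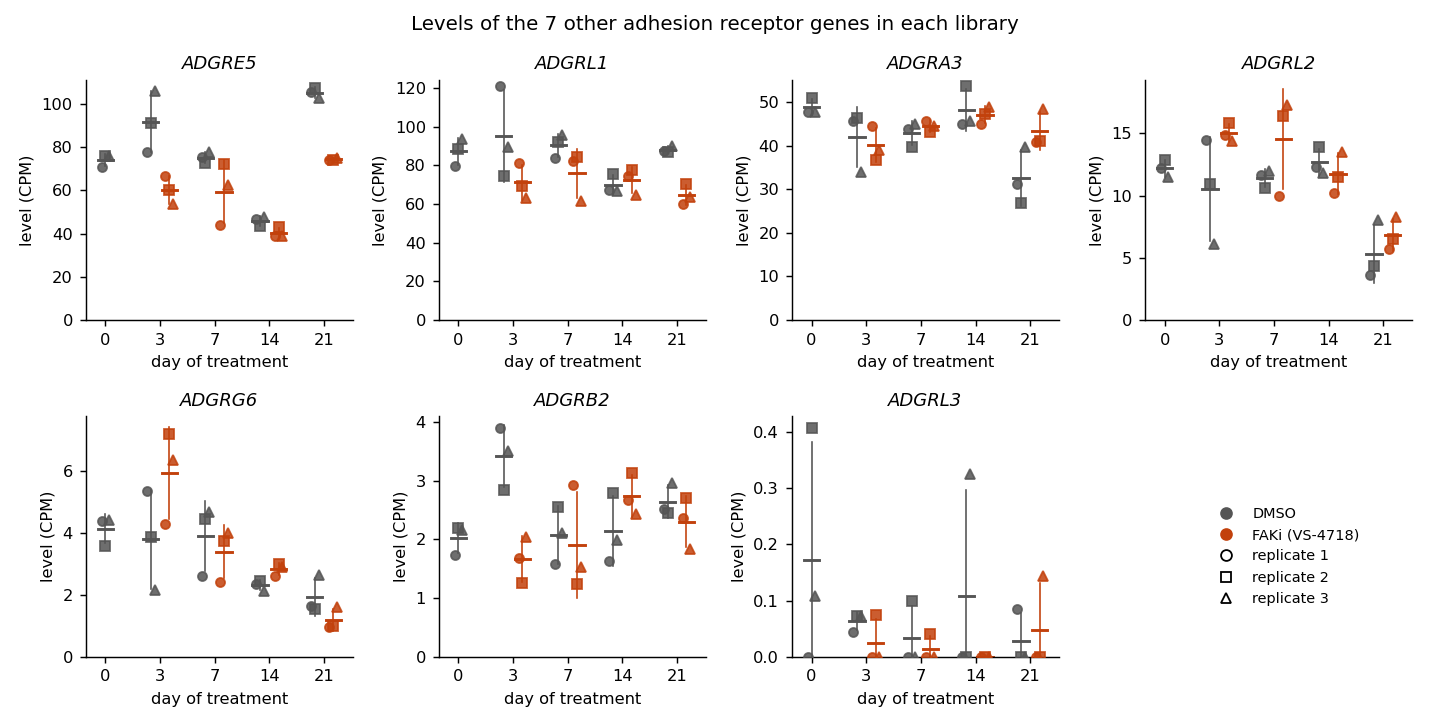
The levels of the 7 other genes in CPM (vertical axes, from 0, with a scale for each gene) are plotted for each of the 27 libraries by day, with DMSO in grey, FAKi in orange, means as horizontal and SD as vertical lines. *ADGRE5* is lower in FAKi on each day, most clearly at day 21 with 74.4 ± 0.383 against 105.2 ± 2.501 CPM, and *ADGRL3* stays at or under 0.408 CPM.

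A difference of the FAKi effect between the 4 days was found by edgeR for 0 of the 7 genes, against 10.3% of all genes. Of the 7, 1 had an unadjusted p under 0.05, against 27.2% of all genes. Without the 3 libraries that stand apart it was found for 3 of the 7, *ADGRL2*, *ADGRA3* and *ADGRE5*, against 38.4% of all genes (adjusted p = 0.00753, 0.0103 and 0.0212 from edgeR).

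Over time in DMSO, 7 of the 8 genes were tested, and 0 were called by edgeR at day 3 against 0% of all genes. There 1 had an unadjusted p under 0.05, against 9.86% of all genes. Without DMSO day 3 replicate 1, 0 were called against 6.66% and 0 passed against 18.6%. At day 7, 0 were called against 0.699%, 1 (*ADGRG1*) passed against 4.94%, and 2 had an unadjusted p under 0.05 against 16.9%. At day 14, 0 were called against 6.07% and 4 passed against 28.3%, namely *ADGRG1*, *ADGRE5*, *ADGRL1* and *ADGRG6*, which were all lower than at day 0. At day 21, 2 were called against 23.3% and 4 passed against 44.9%, with *ADGRL2*, *ADGRG6* and *ADGRA3* lower and *ADGRE5* higher. Without DMSO day 21 replicate 3, 2 were called against 36.9% and 4 passed against 69.7%. These counts include *ADGRG1*, whose tests are not independent of its choice.

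Levels of different genes can be compared only per length of the counted transcript. On that scale *ADGRE5* was at 22.1 CPM per kb on average over the 27 libraries, *ADGRL1* at 10.2 and *ADGRA3* at 9.54. *ADGRA2* (GPR124), the close relative of *ADGRA3*, followed with 5.79 CPM per kb, then *CELSR2* with 3.45 and *ADGRD1* with 3.11. *ADGRG1* was at 3.06 CPM per kb, a mean over groups that ranged from 0.539 in FAKi at day 14 to 5.91 in DMSO at day 7. By group its place among the 16 genes described here moved from 4 in DMSO at day 7 to 9 in FAKi at days 3, 7 and 14. *CELSR1* was at 2.11 CPM per kb, *ADGRL2* at 1.51, *ADGRE2* at 0.912, *CELSR3* at 0.74, *ADGRB3* at 0.479, *ADGRG6* at 0.469 and *ADGRB2* at 0.412. *ADGRV1* and *ADGRB1* were both at 0.193 CPM per kb. All of these had a mean of at least 1 CPM. *ADGRE2* and *ADGRE5* are close paralogs, and how the counting treated reads that map to both is not given in the sources used here. *ADGRF4*, *ADGRL4* and *ADGRE4P* had no count in any of the 27 libraries, and the other 14 genes, *ADGRL3* among them, were under 0.15 CPM.

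**Figure D4:**
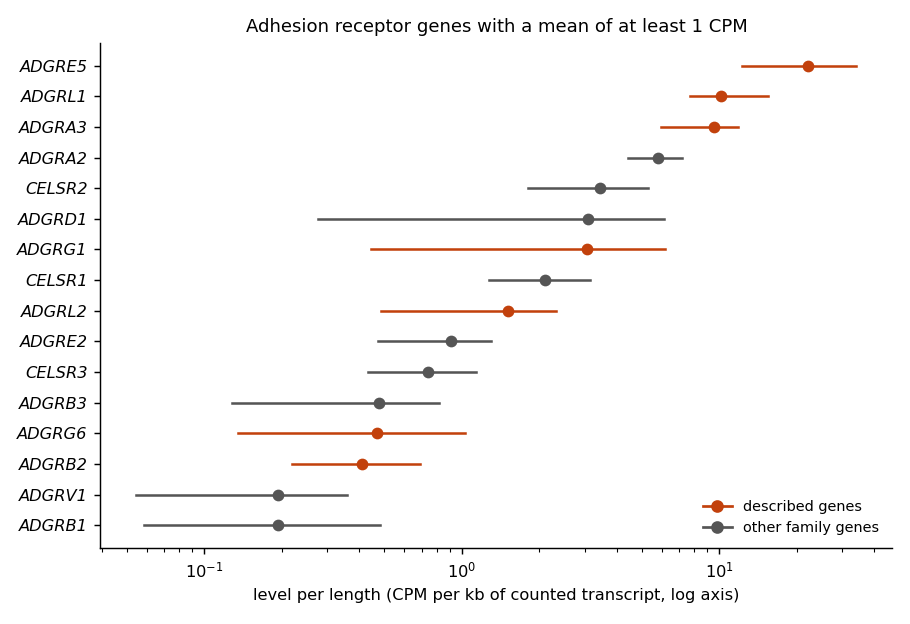
The level of the 16 adhesion receptor genes with a mean of at least 1 CPM is plotted in CPM per kb of the counted transcript on a log axis, as the mean (point) and the range (line) over 27 libraries. *ADGRD1* and *ADGRG1* have about the same mean, 3.11 and 3.06 CPM per kb.

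Of the 25 family genes beyond these 8, 9 to 10 were tested on each day. With FAKi 0 were called at days 3, 7 and 21, against 0%, 0.0269% and 5.28% of all genes, and 2 were called lower at day 14 against 1.66%, *ADGRD1* and *ADGRB3*. The median log2 fold change of the tested genes was -0.18, -0.26, -0.40 and 0.30 on days 3, 7, 14 and 21, against -0.02, 0.01, -0.01 and 0.01 over all genes. *ADGRD1* (GPR133), a receptor studied in glioblastoma, was at 31.1, 32.6 and 31.1 CPM at day 0. At day 14 it was at 11.7, 15.2 and 17.9 CPM in DMSO and at 1.47, 2.68 and 1.92 CPM in FAKi, and it fell by 2.89 on the log2 scale (SE 0.24, adjusted p = 3.77e-08 from edgeR). At day 7 it was at 20.1, 18.9 and 20.4 CPM in DMSO and at 1.93, 13.8 and 12.5 CPM in FAKi, where the low value was again that of FAKi day 7 replicate 1. At day 21 both groups were close, with 11.5, 11.5 and 21.2 CPM in DMSO and 11.02, 11.3 and 13.5 CPM in FAKi. The FAKi effect on *ADGRD1* differed between the days (adjusted p = 0.00764 from edgeR), and its mean was -1.12 (SE 0.19, adjusted p = 3.42e-04 from edgeR), or -0.86 without the 3 libraries that stand apart. In DMSO *ADGRD1* fell from day 0 by 1.08 at day 14 and by 1.11 at day 21 on the log2 scale (adjusted p = 6.2e-05 and 0.00832 from edgeR).

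*ADGRB3* (BAI3), a receptor for C1q-like proteins, was at 3.90, 5.56 and 3.10 CPM in DMSO and at 1.11, 0.974 and 3.33 CPM in FAKi at day 14. Its log2 fold change was -1.23 (SE 0.40, adjusted p = 0.0472 from edgeR), although the highest FAKi library lay inside the DMSO range. The level at day 21 was 1.55, 0.909 and 2.45 CPM in DMSO and 3.74, 2.96 and 3.96 CPM in FAKi, the opposite order. The log2 fold change there was 1.16 (SE 0.35, adjusted p = 0.0658 from edgeR). It was called with the replicate block (1.22, adjusted p = 0.00909 from edgeR) and without DMSO day 21 replicate 3 (1.55, adjusted p = 2.06e-04 from edgeR). *CELSR1*, a cadherin of planar cell polarity, passed in the mean FAKi effect with -0.28 (adjusted p = 0.0259 from edgeR) and did not pass without the 3 libraries (-0.16, adjusted p = 0.0669 from edgeR). In DMSO against day 0, *ADGRE2* fell at day 14 by 1.08, *ADGRV1* at day 21 by 1.03 and *ADGRB3* at day 21 by 1.06 on the log2 scale (adjusted p = 4.67e-04, 0.0161 and 0.0419 from edgeR).

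Ligands and binding partners formed a list of 21 genes. With FAKi 0 of the 16 and 15 tested were called at days 3 and 7, against 0% and 0.0269% of all genes. At day 14, 1 was called higher and 1 lower of 17 tested, against 1.66%, and at day 21, 2 were called higher of 15, against 5.28%. With the replicate block at day 21, 2 were called higher and 1 lower against 8.94% of all genes, the latter being *UNC5D* with -1.72 (adjusted p = 0.0364 from edgeR). *TENM3* was called at day 3 without DMSO day 3 replicate 1 (1.06, adjusted p = 0.0184 from edgeR), against 12.7%, and without DMSO day 21 replicate 3, 3 were called higher and 1 lower at day 21 against 18.7%. The median log2 fold change was 0.22, -0.04, 0.03 and 0.18 by day. *TENM3*, a teneurin and ligand of the latrophilins, was higher in FAKi at both later days. At day 14 it was at 2.90, 4.92 and 4.93 CPM in DMSO and at 8.48, 8.35 and 8.78 CPM in FAKi, and at day 21 at 1.69, 1.76 and 2.59 CPM against 7.57, 6.03 and 6.59 CPM. On each of the 4 days all FAKi libraries were above all DMSO libraries. The share of all genes above on all 4 days was not counted. By day, in either direction, the groups of 30.9%, 16.7%, 28.9% and 35.4% of all genes did not overlap. With all libraries *TENM3* did not pass at days 3 and 7 (adjusted p = 0.269 and 0.36 from edgeR). It rose with FAKi by 1.00 at day 14 and 1.79 at day 21 on the log2 scale, and by 1.04 in the mean (adjusted p = 0.00509, 0.00703 and 2.73e-05 from edgeR). Its DMSO level fell from day 0 to day 21 by 1.35 on the log2 scale (adjusted p = 0.00436 from edgeR). *CNTN6*, a contactin, was at 0.859, 1.02 and 1.06 CPM in DMSO and at 3.31, 3.01 and 3.15 CPM in FAKi at day 21, a log2 fold change of 1.74 (adjusted p = 0.00799 from edgeR). *UNC5D*, a netrin receptor that binds FLRT2, had 0 counts in FAKi and 52 in DMSO at day 14. Against a floor of 3 counts over the group it was at least 14.8-fold lower there (adjusted p = 0.0221 from edgeR), and the median of the list was the same with *UNC5D* at this bound. Of the 52 counts 35 were in DMSO day 14 replicate 1, and without it the bound was 7.21-fold.

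*ADGRG1* itself has 4 partners in the list, and none was called with FAKi in the fits of all libraries. *COL3A1*, its collagen ligand, had 15 counts in all and 0 in 19 libraries. *TGM2*, transglutaminase 2, was at 0.564 CPM on average and *CD9*, a tetraspanin, at 0.547 CPM. At day 21 the log2 fold change of *CD9* was 1.51 (adjusted p = 0.202 from edgeR), and without DMSO day 21 replicate 3 it was called with 2.23 (adjusted p = 0.0157 from edgeR). The tetraspanin *CD81*, which forms complexes with the receptor, was high at 671.8 CPM. The level at day 21 was 1473, 1488 and 994.7 CPM in DMSO and 739.0, 698.6 and 610.3 CPM in FAKi, and it fell by 0.90 on the log2 scale (SE 0.19, adjusted p = 0.0246 from edgeR). The DMSO library nearest to FAKi was again replicate 3, and without it *CD81* was called and fell by 1.05 (adjusted p = 2.38e-07 from edgeR). In DMSO alone *CD81* fell by 0.94 at day 14 and rose by 1.00 at day 21 against day 0 on the log2 scale (adjusted p = 9.49e-06 and 0.00464 from edgeR). *PRNP*, the prion protein, whose soluble flexible tail activates the receptor of *ADGRG6*, fell with FAKi by 0.49 at day 14, 0.53 at day 21 and 0.32 in the mean on the log2 scale (adjusted p = 0.00228, 0.0402 and 0.00357 from edgeR). Of all partners tested, 2 of 17 passed as higher and 2 as lower at day 14, against 12.4% of all genes. At day 21 it was 2 higher and 2 lower of 15, against 11.6%. For the mean it was 1 higher and 3 lower of 18, against 15.7%.

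**Figure D5:**
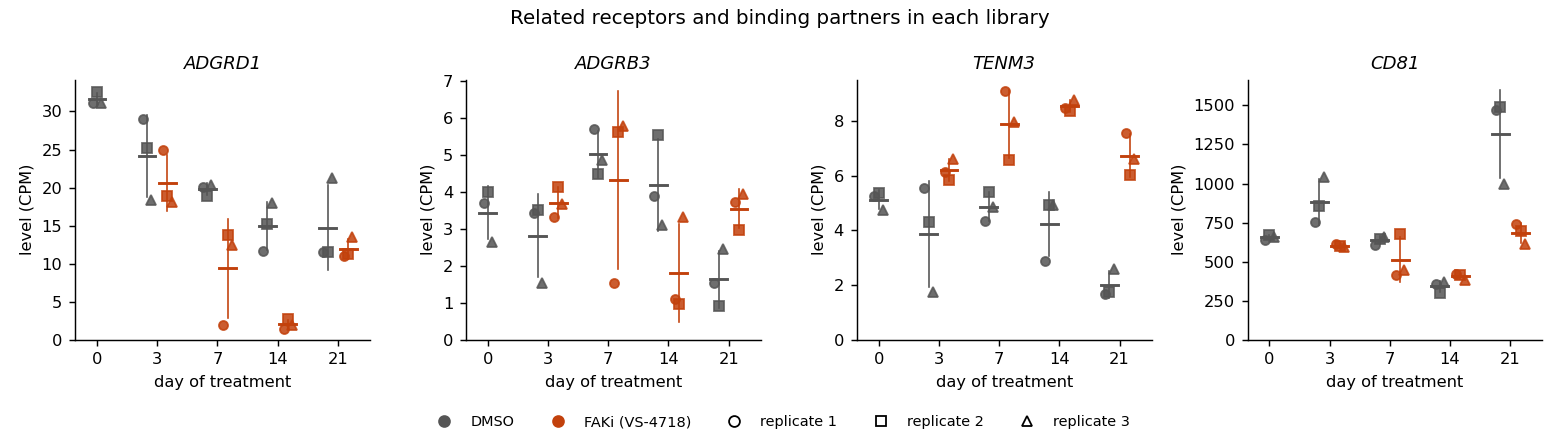
The levels of *ADGRD1*, *ADGRB3*, *TENM3* and *CD81* in CPM (vertical axes, from 0, with a scale for each gene) are plotted for each of the 27 libraries by day, with DMSO in grey, FAKi in orange, means as horizontal and SD as vertical lines. *ADGRD1* is lowest in FAKi at day 14 (1.47 to 2.68 CPM), and *CD81* is highest in DMSO at day 21 (994.7 to 1488 CPM).

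The 16 genes for G proteins, small GTPases, their exchange factors and the kinases they activate, which act after these receptors, were tested in every comparison. With FAKi 0 of the 16 were called by edgeR on any day, and 0, 0, 2 and 2 passed at days 3, 7, 14 and 21, against 0%, 0.0269%, 12.4% and 11.6% of all genes. The number with an unadjusted p under 0.05 was 1, 0, 5 and 5, against 23.8%, 8.77%, 24.6% and 32.6% of all genes. At day 14 *GNA11* rose by 0.46 and *ROCK1* fell by 0.36 on the log2 scale (adjusted p = 0.0161 and 0.0466 from edgeR). At day 21 *GNAI3* fell by 0.68 and *RHOC* by 0.59 (adjusted p = 0.0189 and 0.0421 from edgeR). Without DMSO day 21 replicate 3, 3 of the 16 were called higher at day 21, beside 18.7% of all genes called in that fit, namely *ARHGEF11*, *ARHGEF12* and *ROCK1*, with log2 fold changes of 1.10, 1.04 and 1.13 (adjusted p = 1.14e-06, 5.02e-05 and 7.25e-05 from edgeR), and the same 3 passed with the replicate block, beside 29.9% of all genes, without reaching the fold limit.

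The genes whose pattern over the 27 libraries was most like that of *ADGRG1* were listed by Pearson's r of log2 CPM among 16982 genes with a mean of at least 1 CPM. They were *NRARP* (0.954), *BGN* (0.938), *NOX5* (0.935), ENSG00000273259 (0.925) and *YBX3* (0.924). *NRARP* is an inhibitor of Notch signaling, *BGN* encodes the matrix proteoglycan biglycan, *NOX5* a calcium-regulated NADPH oxidase and *YBX3* a protein that binds nucleic acids. Without day 0, in 24 libraries, these were the top 5 as well. The most opposite genes were *ACSL5* (-0.893), *NCALD* (-0.890), *ZDHHC7* (-0.888), *OSTM1* (-0.887) and *SLC25A16* (-0.886). As all libraries share treatment, day and scaling, these values are descriptions of likeness. Among the 8 genes, r with *ADGRG1* was 0.529 for *ADGRL1*, 0.272 for *ADGRL3*, 0.068 for *ADGRG6*, -0.005 for *ADGRB2*, -0.197 for *ADGRL2* and -0.236 for *ADGRA3*.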

How the data were processed

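Poly(A) RNA of 92.1 cells was sequenced from TruSeq Stranded mRNA libraries, and 27 libraries in 9 groups of 3 were analysed. The authors deposited raw counts per gene. Per the labels and file headers, reads were trimmed with Trim Galore, checked with FastQC (version 0.11.8), aligned to hg38 with STAR (version 2.5.3a) and counted with HOMER over exons of GENCODE v39, where 1 transcript stands for each gene. Strand setting and treatment of multimapping reads are not given in the sources used here. The table also holds the length of the counted transcript, which was used for CPM per kb. The processing notes also name DESeq2.

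Counts were tested with edgeR (version 4.0.16) in R (version 4.3.3) by its quasi-likelihood test, with TMM scaling, on genes with at least 20 counts in the libraries of a fit. Each day was fitted on its 6 libraries, and the mean FAKi effect and its difference between days on 24. P-values were adjusted by Benjamini-Hochberg over all genes tested, with calls where the adjusted p was 0.05 or less and the log2 fold change beyond 1 in size. CPM were set on TMM factors over 27 libraries. Scripts were tested on simulated data. Total counts of 12161994 to 43651551 per library limit genes such as *ADGRL3*, and 17687 of 61533 genes had no counts. Alternatives were RLE scaling, no count filter, filterByExpr, DESeq2 (version 1.42.0), a single fit of all libraries, the adjusted p alone, each library left out, and a replicate block.

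Per the methods, each condition was plated in triplicate, and the whole experiment was made in 3 biological replicates. The sources do not say that equal numbers mark the same repeat, though a tag in the column names equals the replicate number in all 27 libraries. Deviations from the group mean correlated over genes between FAKi and DMSO libraries of the same number at day 21 (r = 0.443, 0.128 and 0.658), and not at every number on the other days, so that the numbers were taken as pairs at day 21 only. This choice was made on these same data, and libraries of unlike number were not compared. DMSO day 21 replicate 3, which stands apart, is among these libraries.

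The 8 genes and the lists were chosen with earlier results of these data known. All 8 were described. Other family genes were named where their mean was at least 1 CPM or they were called, partners and signaling genes where they were called with FAKi, and 5 genes at either end of the likeness to *ADGRG1*. Partners and signaling genes named for an adjusted p alone, and the partners of *ADGRG1*, were chosen after their values were seen. Upstream windows came from RefSeq (GRCh38.p14), and exons and overlaps from GENCODE 44.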

Additional observations from a re-analysis of the deposited data

Results flagged for a closer look

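The FAKi effect differed between the 4 days by edgeR's test of the interaction in 24 libraries for 4 of the 46 genes tested in the lists of other family genes, partners and signaling genes, a share below the 10.3% of all genes. For *ADGRD1* the adjusted p was 0.00764 from edgeR, and the log2 fold changes were -0.21, -1.08, -2.89 and -0.26, in the order of days 3, 7, 14 and 21. For *CD81* it was 0.0173 from edgeR, with daily values of -0.54, -0.32, 0.24 and -0.90. For *RHOC* it was 0.0157 from edgeR, with -0.64, -0.03, 0.22 and -0.59. For *CD9* it was 0.0382 from edgeR, with 1.23, 0.03, -2.09 and 1.51, at a mean level of 0.547 CPM. Without the 3 libraries that stand apart it differed for 24 of the 46, against 38.4% of all genes.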

How the results depend on the processing

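RLE scaling, filterByExpr and the replicate block left the number of called genes among the 8 as it was in every comparison. At day 21, where the numbers were taken as pairs, the replicate block gave 0 called with FAKi and moved *ADGRL1* and *ADGRA3* past the adjusted p alone. With the adjusted p alone the number was 1 for FAKi at day 21, 2 for the mean FAKi effect, and 1, 4 and 4 for DMSO at days 7, 14 and 21 against day 0. For FAKi at day 3 it was 1 in place of 0 with DESeq2, with no count filter and in the fit of all 27 libraries, in each case *ADGRB2*. With the 3 libraries that stand apart left out, the FAKi effect differed between days for 3 genes in place of 0, an alternative chosen after seeing the data. Leaving out each library gave 0 to 2 calls in DMSO at day 21, with 0 without DMSO day 21 replicate 1, and 1 without DMSO day 0 replicate 1 or 3 or DMSO day 21 replicate 2. For the difference between days it gave 0 to 1, with 1 without DMSO day 21 replicate 3. In the other comparisons it gave 0 throughout. An arm left with 2 libraries shares its spread with the other arm.

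Log2 fold changes close to 0 changed sign when 1 library was left out. With FAKi the range was -0.19 to 0.025 for *ADGRA3* at day 3, -0.59 to 0.12 for *ADGRB2* at day 7, and -0.084 to 0.041 for *ADGRA3* and -0.011 to 0.12 for *ADGRL1* at day 14. It was -0.057 to 0.11 for *ADGRG6* in the mean over the days. In DMSO at day 3 against day 0 it was -0.11 to 0.24 for *ADGRL1*, -0.48 to 0.14 for *ADGRG6* and -0.53 to 0.042 for *ADGRL2*. At day 7 it was -0.021 to 0.094 for *ADGRL1*, -0.020 to 0.034 for *ADGRE5*, -0.14 to 0.17 for *ADGRB2* and -0.29 to 0.12 for *ADGRG6*. At day 14 it was -0.15 to 0.24 for *ADGRB2*, -0.099 to 0.029 for *ADGRA3* and -0.0095 to 0.10 for *ADGRL2*. At day 21 it was -0.053 to 0.056 for *ADGRL1* and -0.057 to 0.24 for *ADGRG1*, where the negative end is without DMSO day 21 replicate 3. The causes of these shifts were not tested. With 35 counts in all, whether *ADGRL3* differed cannot be told at this depth.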

Other observations

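Of the 7 melanocytic markers 0 passed with FAKi at days 3 and 7, against 0% and 0.0269% of all genes in either direction. As higher, 2 passed at day 14 against 12.4%, and 2 at day 21 against 11.6%. In the mean over the days 3 passed as higher against 15.7%, and 0 passed as lower in any of these comparisons. *TYR*, tyrosinase, rose by 0.60 at day 14, 0.95 at day 21 and 0.60 in the mean over the days on the log2 scale (adjusted p = 2.11e-04, 0.00723 and 1.9e-07 from edgeR). *DCT*, which acts after tyrosinase in melanin synthesis, rose by 1.19 at day 21 and 1.02 in the mean (adjusted p = 0.0253 and 1.26e-04 from edgeR). *PMEL*, the fibril protein of the melanosome, rose by 0.78 at day 14 and 0.28 in the mean (adjusted p = 3.2e-06 and 0.0181 from edgeR). At day 21 *MITF* and *MLANA* were at -0.22 and -0.21 (adjusted p = 0.356 and 0.433 from edgeR). Without the libraries that stand apart, 3 passed as higher and 1 as lower at day 3, against 32.7% of all genes in either direction. The lower one was *PMEL*, which fell by 0.41 (adjusted p = 0.0336 from edgeR). At day 21, 4 passed as higher and 1 as lower against 48.5%, where *MLANA* fell by 0.35 (adjusted p = 0.0106 from edgeR). Also without these libraries, 3 passed as higher and 0 as lower at day 7, against 2.96%. In the mean over the days 6 passed as higher and 0 as lower, against 33%. Among the fibroblast markers, *LUM* fell at day 21 by 1.15 on the log2 scale (adjusted p = 0.0487 from edgeR). The part of these changes in the results on adhesion receptors was not tested.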
